A study of Mus musculus with 6 samples.

Results

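The interferon regulatory factors are a family of transcription factors that share a DNA-binding domain with conserved tryptophans. Of the 55860 genes in the deposited tables, 8 are described here, chosen by symbol: Irf1, Irf2, Irf3, Irf4, Irf5, Irf7, Irf8 and Irf9. The tables annotate 9 genes as members of this family. The libraries hold RNA of mouse granulosa cells, the somatic cells of the ovary that surround the oocyte, and 3 came from Il22r+/+ mice and 3 from Il22r-/- mice, which lack a receptor for the cytokine interleukin-22. The cells of both genotypes had been separated on a density gradient and kept for 12 h in medium with 10% serum. The labels give neither the deleted part of the gene, nor the strain and age, nor whether libraries came from separate animals, so p-values measure only the spread between these libraries, which may be technical.

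Interferon regulatory factors act at several steps of one circuit. IRF3, present before any stimulus, and IRF7, made in larger amounts after one, are phosphorylated downstream of sensors of foreign nucleic acid and switch on the interferon genes. Secreted interferon then acts through its receptor and JAK kinases on the complex ISGF3, to which IRF9 belongs. ISGF3 binds the interferon-stimulated response element (ISRE) of antiviral genes and of Irf7 itself. IRF1 is induced through gamma-activated sites (GAS), IRF2 competes with IRF1 for the same DNA, IRF5 serves Toll-like receptors, and IRF4 and IRF8 are best known from blood cells.

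Of the 8 genes, 3 fell in Il22r-/- cells (Irf7, Irf5 and Irf9), 2 were called higher (Irf1 and Irf8, of which Irf8 passed the filter on low counts only through its Il22r-/- libraries), 2 did not pass the test (Irf2 and Irf3) and 1 had too few reads for a test (Irf4). Over all 15227 tested genes, 45.7% were called by the same test, 23.6% higher and 22.1% lower, so a call by itself is common in this comparison. The falls of Irf7 and Irf5 were over 4-fold, which 1.74% of tested genes reached in that direction. The tested Irf genes ran from a log2 change (Il22r-/- minus Il22r+/+) of -2.85 to 2.29 with a median of -0.13, where all tested genes had a median of 0.03.

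Libraries held 17425229 to 17704556 counted reads in Il22r+/+ and 14948187 to 18116413 in Il22r-/-. Il22ra1, taken as the targeted gene, was covered by 1, 5 and 4 reads in the Il22r+/+ libraries (replicates 1, 2 and 3 here and below) against 5, 2 and 0 in the Il22r-/- libraries, too few to check the genotype labels. The 13 granulosa markers summed to 7627 to 8491 CPM (reads scaled to a common library size after TMM normalisation) in Il22r+/+ and 7601 to 8334 CPM in Il22r-/-. Most of that sum came from Inha (means of 3202 CPM in Il22r+/+ and 2605 CPM in Il22r-/-), Gja1 (2155 and 1460 CPM) and Inhba (1759 and 2858 CPM). Single granulosa markers moved both ways under it: of 11 tested, 5 rose (among them Inhba, an inhibin subunit, and Amhr2, a receptor of anti-Mullerian hormone) and 3 fell (the transcription factor genes Foxl2 and Nr5a1, and the gap junction gene Gja1). Beside this count and the marker counts that follow, 23.6% of all tested genes rose and 22.1% fell. Fshr, which also rose, had 13 pooled reads in Il22r+/+ and 313 in Il22r-/-, and passed the filter only through Il22r-/-. Of 11 tested macrophage markers (of 12 listed) 10 rose. Of those 10, 7 passed the filter on low counts only through the Il22r-/- libraries. That route favours genes that are higher there, so the count is given as a description. The macrophage list summed to 11.0 to 13.8 CPM in Il22r+/+ and 30.9 to 91.0 CPM in Il22r-/-. Of 5 tested theca and stroma markers, Col1a2 rose and Dcn fell. Col1a2 passed the filter only through its Il22r-/- libraries, so its call is given as a description. The 7 listed summed to 335.3 to 430.3 CPM in Il22r+/+ and 133.2 to 255.4 CPM in Il22r-/-. That sum follows Dcn in large part (means of 242.7 CPM in Il22r+/+ and 10.6 CPM in Il22r-/-). Pdgfra, Lum and Col1a1 were not called. Mesothelial markers fell in 4 of 5 cases, from 237 to 241.1 CPM down to 10.3 to 20.7 CPM. In bulk RNA, fewer cells of a type and less RNA per cell cannot be told apart. The part of these cell types in the results on Irf genes was not tested.

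The start-site windows of 4 of these genes are shown because they differ in the 2 elements named above. RefSeq windows of 250 bases before to 50 bases after the start site (GRCm38.p6) were found for all 8 genes, the window nearest to the gene's deposited start being used. Capitals mark matches to GAAANNGAAA (ISRE) or TTCNNNGAA (GAS) on either strand. The windows of Irf1 (chr11:53769764-53770063, plus strand) and Irf8 (chr8:120736108-120736407, plus strand) belong to the genes called higher, that of Irf2 (chr8:46739495-46739794, plus strand) to a gene that did not pass, and that of Irf7 (chr7:141266375-141266674, minus strand) to the gene with the largest fall.
Irf1: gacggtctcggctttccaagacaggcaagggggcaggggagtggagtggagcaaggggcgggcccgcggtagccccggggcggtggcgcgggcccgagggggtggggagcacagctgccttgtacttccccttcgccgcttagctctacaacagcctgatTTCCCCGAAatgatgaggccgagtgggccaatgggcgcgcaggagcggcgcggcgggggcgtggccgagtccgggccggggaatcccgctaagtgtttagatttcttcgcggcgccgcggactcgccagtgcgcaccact
Irf8: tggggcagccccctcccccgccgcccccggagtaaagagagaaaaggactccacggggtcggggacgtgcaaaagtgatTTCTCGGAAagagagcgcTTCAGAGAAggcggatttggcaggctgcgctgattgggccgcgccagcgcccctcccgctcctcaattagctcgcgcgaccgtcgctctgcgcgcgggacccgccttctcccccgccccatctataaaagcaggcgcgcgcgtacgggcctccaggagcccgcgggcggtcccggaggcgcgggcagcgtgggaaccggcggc
Irf2: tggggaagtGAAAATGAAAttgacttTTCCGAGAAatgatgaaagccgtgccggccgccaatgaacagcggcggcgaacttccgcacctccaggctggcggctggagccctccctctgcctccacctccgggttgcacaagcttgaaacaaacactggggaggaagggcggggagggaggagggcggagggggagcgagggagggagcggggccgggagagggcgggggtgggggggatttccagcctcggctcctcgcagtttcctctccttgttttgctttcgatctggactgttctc
Irf7: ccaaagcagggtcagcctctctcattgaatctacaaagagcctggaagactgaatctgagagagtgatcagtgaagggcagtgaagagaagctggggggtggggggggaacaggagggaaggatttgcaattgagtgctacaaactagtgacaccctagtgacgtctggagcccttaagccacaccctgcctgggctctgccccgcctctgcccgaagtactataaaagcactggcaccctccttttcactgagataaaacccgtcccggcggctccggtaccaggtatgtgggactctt

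The GAS matches were TTCCCCGAA beginning 90 bases before the start site of Irf1, with TTCTCGGAA and TTCAGAGAA beginning 171 and 153 bases before that of Irf8. Irf2 had TTCCGAGAA 224 bases and the ISRE match GAAAATGAAA 241 bases before its start site, with no overlap between them. The other 5 windows, those of the 3 genes that fell among them, held neither pattern. Among all 32841 windows of this length, 8.3% held the GAS pattern and 3.4% the ISRE pattern. A match describes letters only, and an element outside the window would not be seen: the start site of the Irf9 window lies 414 bases from the deposited gene start and that of the Irf7 window 57 bases from it.

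Irf7 (ENSMUSG00000025498, mm10 chromosome 7, 141262706 to 141266481, minus strand), the factor that amplifies interferon production, had the largest fall of the family. It stood at 14.2, 14.0 and 21.4 CPM in the Il22r+/+ libraries and at 2.05, 2.29 and 2.56 CPM in the Il22r-/- libraries. The genotypes did not overlap, as in 56% of tested genes, and Il22r+/+ replicate 3 stood above the other Il22r+/+ libraries. The log2 change was -2.85 ± 0.21 (SE, 7.2-fold lower, edgeR quasi-likelihood adjusted p = 3.58e-06), and -2.62 without Il22r+/+ replicate 3. Phrf1, on the opposite strand, shares 1.2% of the Irf7 exon length and had 106.6 ± 3.96 and 118.7 ± 7.99 CPM (SD, n = 3), without passing the test (edgeR adjusted p = 0.12).

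Irf5 (ENSMUSG00000029771, chromosome 6, 29526625 to 29541871, plus strand), which acts in inflammatory signalling from Toll-like receptors and is abundant in macrophages, fell nearly as far. Its levels were 17.0, 13.9 and 14.3 CPM in Il22r+/+ and 2.21, 2.67 and 1.97 CPM in Il22r-/-. Libraries of each genotype lay close together and the genotypes were well apart. This gave a log2 change of -2.71 ± 0.18 (6.57-fold lower, edgeR adjusted p = 1.49e-06). The opposite-strand gene Tnpo3 shares 14.1% of the Irf5 exon length, where reads cannot be assigned without strand. Tnpo3 itself rose from 86.6 ± 3.13 to 101.4 ± 5.52 CPM. The nearest protein-coding gene on the other side, Kcp, fell from 9.02 ± 1.90 to 3.78 ± 0.397 CPM.

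Irf9 (ENSMUSG00000002325, chromosome 14, 55603571 to 55610030, plus strand), the DNA-binding part of ISGF3, had 36.3, 38.2 and 48.1 CPM in Il22r+/+ and 17.3, 20.6 and 16.2 CPM in Il22r-/-. As with Irf7, the highest library was Il22r+/+ replicate 3. Irf9 fell 2.26-fold (log2 change -1.18 ± 0.13, edgeR adjusted p = 5.69e-05). The neighbour Rnf31, which shares 2.3% of the Irf9 exon length on the same strand, had 32.5 ± 1.83 and 29.1 ± 3.04 CPM and did not pass.

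Irf1 (ENSMUSG00000018899, chromosome 11, 53770014 to 53778374, plus strand), an activator of antigen presentation and of inducible genes, rose. It had 4.74, 4.42 and 5.86 CPM in Il22r+/+ and 8.66, 10.6 and 7.49 CPM in Il22r-/-. Every Il22r-/- library was above every Il22r+/+ library, with replicate 2 the highest. The log2 change was 0.83 ± 0.19 (1.78-fold higher, edgeR adjusted p = 0.00479). Gm17334 shares 3.4% of the exon length on the opposite strand, and had 4 reads in all of Il22r+/+ and 33 in all of Il22r-/-.

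Irf8 (ENSMUSG00000041515, chromosome 8, 120736358 to 120756694, plus strand), which directs the development of monocytes and dendritic cells, was rare. Its reads numbered 4, 2 and 3 in the Il22r+/+ libraries and 15, 24 and 9 in the Il22r-/- libraries. It passed the filter on low counts only through its Il22r-/- libraries. That route favours genes that are higher there, so its call is given as a description. Its log2 change was 2.29 ± 0.53 (edgeR adjusted p = 0.00536), and the pooled reads gave a ratio of 5.1 (exact 95% interval 2.48 to 11.8, counting error only). The order of the Il22r-/- libraries, replicate 2 over 1 over 3, was also that of the summed macrophage markers, at 91.0, 62.3 and 30.9 CPM. Irf1, Irf5 and Irf9 took the same order in Il22r-/-, so it is not particular to Irf8. Irf8, which is not in the sum of macrophage markers, stood at 1.26% to 1.91% of it in Il22r-/-. In Il22r+/+ it stood at 1.09% to 2.01%, resting on the 4, 2 and 3 reads above. Lyz2 weighs more in that sum in Il22r-/- (mean of 29.5 CPM) than in Il22r+/+ (2.74 CPM). The percentages therefore set Irf8 against a different mix of markers in each genotype. Spi1, the DNA partner of IRF8 in myeloid cells, was counted 5, 0 and 3 times in Il22r+/+ libraries and 13, 31 and 0 times in Il22r-/- libraries.

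**Figure D1:**
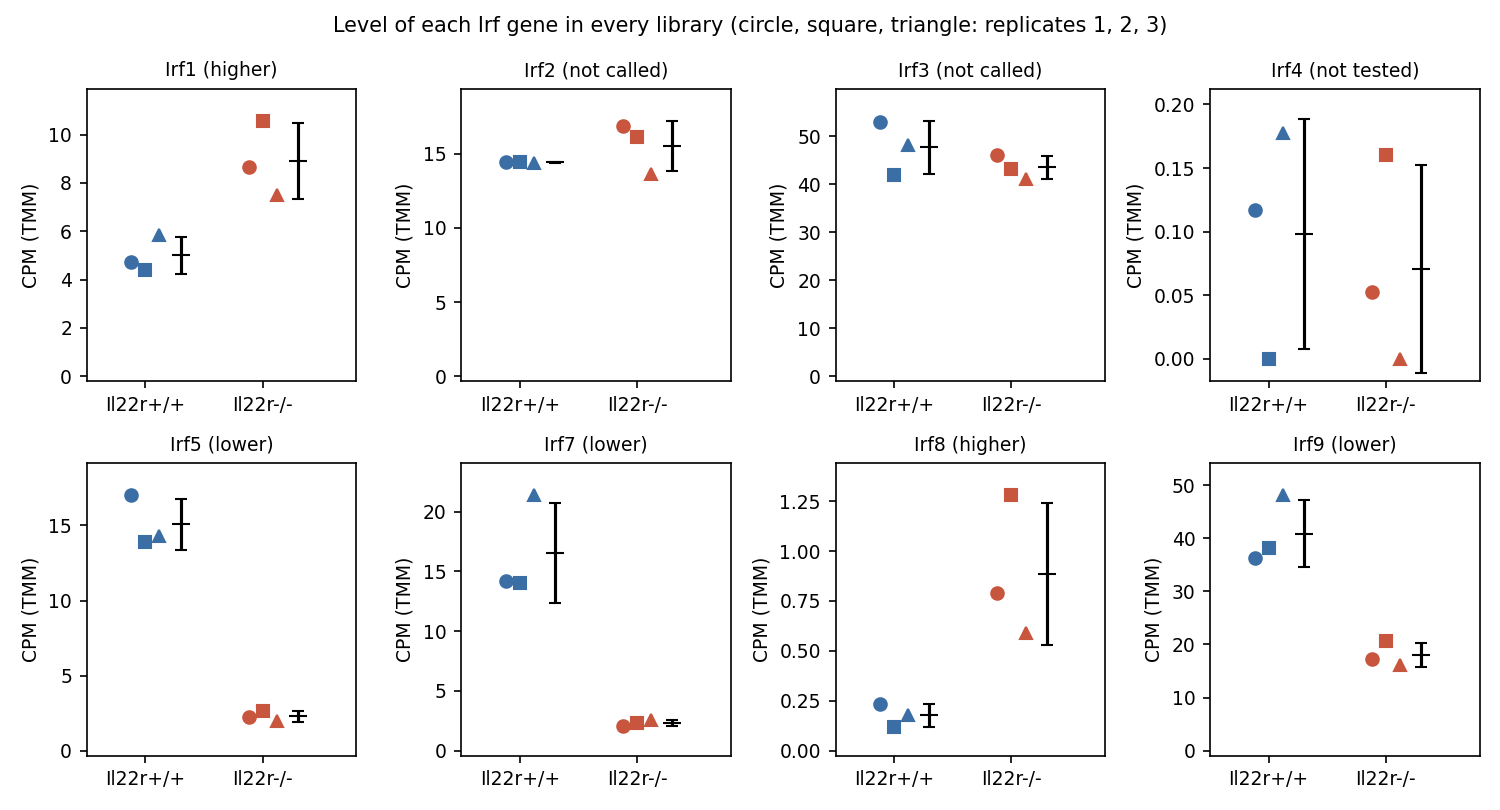
Level of each of the 8 Irf genes (y axis, CPM after TMM scaling, linear and different for each panel) in the 3 Il22r+/+ (blue) and 3 Il22r-/- (red) libraries, with the mean and SD as black bars and the call of the edgeR test in the title. Irf5, Irf7 and Irf9 are lower and Irf1 and Irf8 higher in Il22r-/- without overlap, while Irf2, Irf3 and Irf4 overlap.

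Irf3 (ENSMUSG00000003184, chromosome 7, 44997648 to 45002848, plus strand), the factor that waits in the cytoplasm for phosphorylation, had 53.0, 42.0 and 48.1 CPM in Il22r+/+ and 46.1, 43.3 and 41.2 CPM in Il22r-/-. The genotypes overlapped. The log2 difference was -0.13 ± 0.10 (95% interval -0.35 to 0.09, edgeR adjusted p = 0.302), so the interval leaves out a change of 2-fold either way. Its head-to-head neighbour Bcl2l12, a BCL2-related gene that shares 2.6% of the Irf3 exon length, had 10.8 ± 0.52 and 12.9 ± 1.70 CPM and did not pass either.

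Irf2 (ENSMUSG00000031627, chromosome 8, 46739732 to 46847458, plus strand), the antagonist of IRF1, had 14.4 CPM in each of the 3 Il22r+/+ libraries and 16.9, 16.1 and 13.7 CPM in Il22r-/-. Il22r-/- replicate 3 lay below the Il22r+/+ libraries and the other Il22r-/- libraries above them. The log2 difference was 0.11 ± 0.12 (95% interval -0.16 to 0.38, edgeR adjusted p = 0.485). Irf4 (ENSMUSG00000021356, chromosome 13, 30749226 to 30766976, plus strand), a factor of B cells, T cells and dendritic cells, was counted 2, 0 and 3 times in Il22r+/+ libraries and 1, 3 and 0 times in Il22r-/- libraries. At 5 against 4 pooled reads (ratio 0.766, exact 95% interval 0.152 to 3.56), no difference was detectable at this depth. The 5 B cell markers summed to 0.239 to 0.587 CPM per library, and the 8 T and NK cell markers to 0.16 CPM at most. The 9 dendritic cell markers summed to 14.9 to 22.4 CPM per library, nearly all of it from Zbtb46 and H2-Ab1.

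**Figure D2:**
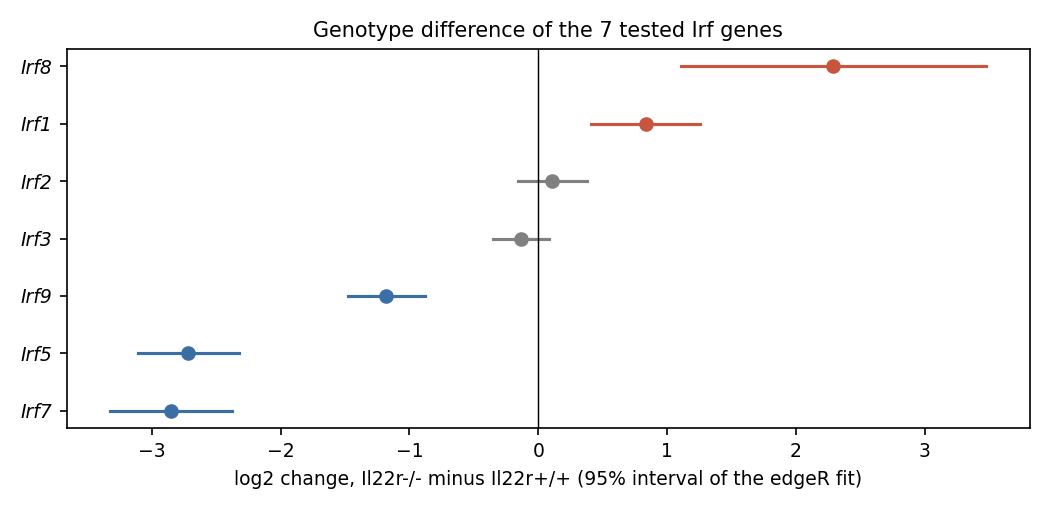
Log2 change of the 7 tested Irf genes (x axis, Il22r-/- minus Il22r+/+, log2 scale), with points for the edgeR estimate and lines for its 95% interval, red for called higher, blue for called lower and grey for not called. The intervals of Irf7, Irf5 and Irf9 lie below 0, those of Irf1 and Irf8 above it, and those of Irf2 and Irf3 include it.

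Levels of different genes were compared on the deposited FPKM scale, which divides counts by gene length. In Il22r+/+ the order of mean FPKM was Irf3 (14.2 ± 1.67, SD, n = 3), Irf9 (7.81 ± 1.22), Irf5 (5.34 ± 0.602), Irf7 (4.50 ± 1.15), Irf2 (2.00 ± 0.00351), Irf1 (1.29 ± 0.199), Irf8 (0.0258 ± 0.00838) and Irf4 (0.0206 ± 0.019). Only Irf5 with Irf7 and Irf8 with Irf4 overlapped their neighbour in that order. In Il22r-/- the order was Irf3 (12.8 ± 0.613), Irf9 (3.38 ± 0.426), Irf1 (2.26 ± 0.387), Irf2 (2.12 ± 0.211), Irf5 (0.792 ± 0.121), Irf7 (0.616 ± 0.0741), Irf8 (0.127 ± 0.0506) and Irf4 (0.0146 ± 0.0168). Here Irf1 overlapped Irf2, and Irf5 overlapped Irf7. Irf1 and Irf2, which had been below Irf5 and Irf7 in Il22r+/+, were above them in Il22r-/-.

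The makeup of the family therefore differed between the genotypes. Irf3 made up 37.8% to 44% of the summed FPKM of the 8 genes in Il22r+/+ and 54.7% to 59.6% in Il22r-/-, on a sum of 31.7 to 38.1 and 20.5 to 23.2 FPKM. Irf5 and Irf7 lost the most share, Irf5 from between 13.3% and 16.8% to between 3.37% and 4%, and Irf7 from between 10.8% and 15.3% to between 2.41% and 3.37%. The FPKM ratio of the activator Irf1 to its antagonist Irf2 was 0.61, 0.569 and 0.758 in Il22r+/+ and 0.956, 1.22 and 1.02 in Il22r-/-. That of the inducible Irf7 to the constitutive Irf3 was 0.245, 0.305 and 0.405 in Il22r+/+ and 0.0405, 0.0483 and 0.0567 in Il22r-/-. Neither ratio overlapped between the genotypes.

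**Figure D3:**
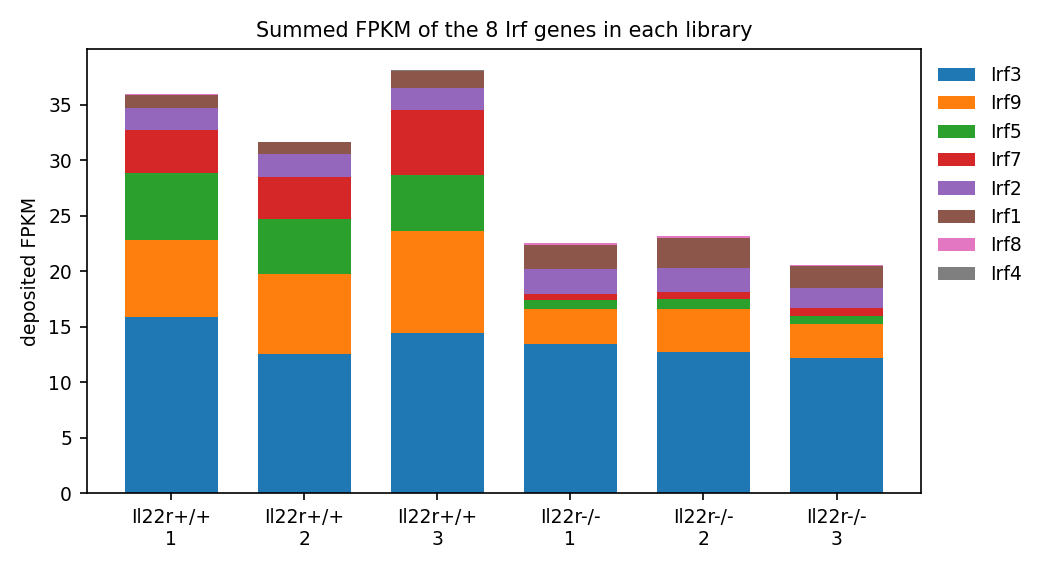
Summed FPKM of the 8 Irf genes (y axis, deposited FPKM, linear from 0) in each of the 6 libraries, stacked by gene. The sums are 31.7 to 38.1 in Il22r+/+ and 20.5 to 23.2 in Il22r-/-, with smaller Irf9, Irf5 and Irf7 segments in Il22r-/- and Irf4 and Irf8 too small to see.

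Genes of interferon signalling were read from lists chosen for this family, with earlier results of these data known. The counts from these lists are therefore given as a description. Interferon ligands were close to absent. Of 21 listed genes 15 had no read in any library and none had enough for a test. The most abundant were Ifnz, at 5 reads in all of Il22r+/+ and 3 in all of Il22r-/-, and Ifnb1, the interferon-beta gene, at 3 and 1. Of the 11 receptor, kinase and STAT genes 5 fell and 2 rose, where 22.1% of all tested genes fell and 23.6% rose. Stat2, a partner of IRF9 in ISGF3, fell from 41.4 ± 6.65 to 19.3 ± 0.488 CPM (log2 change -1.10). Ifnlr1, the interferon-lambda receptor chain, fell from 9.22 ± 1.20 to 5.16 ± 1.13 CPM, and Ifngr2, a chain of the interferon-gamma receptor, from 97.6 ± 6.76 to 70.6 ± 4.39 CPM. The 2 that rose, named after their values were seen, were Ifnar2, a chain of the type I receptor (27.9 ± 0.387 to 36.2 ± 1.06 CPM), and the kinase gene Tyk2 (log2 change 0.39). The list's median log2 change was 0.07.

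Upstream of IRF3, IRF5 and IRF7, 9 of 20 tested sensor, adaptor and kinase genes fell and 2 rose (median log2 change -0.32). Over all tested genes 22.1% fell and 23.6% rose. Ddx58, the RIG-I sensor of viral RNA, fell from 62.9 ± 8.34 to 20.96 ± 3.45 CPM, and Ifih1, the sensor MDA5, from 12.7 ± 1.37 to 6.18 ± 0.333 CPM. The DNA-sensing adaptor Tmem173, or STING, fell from 9.19 ± 0.522 to 5.11 ± 0.488 CPM, and Tbkbp1, a TBK1-binding adaptor, from 5.06 ± 0.481 to 2.67 ± 0.565 CPM. Traf6 and Azi2, named after their values were seen, rose (log2 changes 0.44 and 0.50). The kinase genes Tbk1 and Ikbke, whose products phosphorylate IRF3 and IRF7, had log2 differences of -0.17 ± 0.09 and -0.17 ± 0.12 and did not pass (edgeR adjusted p = 0.146 and 0.297); both were named after their values were seen.

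Proteins that bind IRFs were represented by 7 tested genes of 14 listed. In the main edgeR test none rose (23.6% of all tested genes did), also at an unadjusted p under 0.05. In edgeR with no filter, or without Il22r-/- replicate 3, 2 rose, and 1 rose by the DESeq2 Wald test. Of the 7 tested, 4 fell, where 22.1% of all tested genes fell. These included all 3 genes for the IRF2-binding corepressors: Irf2bp2 (101.9 ± 12.1 to 59.7 ± 13.1 CPM), Irf2bpl (169.8 ± 2.75 to 113.8 ± 15.4 CPM) and Irf2bp1 (68.3 ± 4.10 to 51.9 ± 2.82 CPM). The fourth was Trim21, a ubiquitin ligase that targets IRFs (log2 change -0.74). The myeloid and lymphoid partners of IRF4 and IRF8 were mostly below the filter. Of those below it, Spi1 had 8 pooled reads in Il22r+/+ and 44 in Il22r-/-, Batf 0 and 17, and Ikzf1 2 and 16. Batf3 had 0 and 7, Batf2 had 0 and 5, and Spib and Ikzf3 had no read.

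Type I interferon-stimulated genes, the targets of ISGF3, were mostly lower as well. Of 23 tested, 18 fell and none rose, where 22.1% of all tested genes fell, and their median log2 change was -1.18. Of those 18, 8 (the next 4 genes named among them) passed the filter on low counts only through their Il22r+/+ libraries. That route favours genes that are lower in Il22r-/-, so the count and median are given as a description. The count that rose was 0 in edgeR also at an unadjusted p under 0.05, and 0 by DESeq2 and by limma. The furthest were Ifi44 (log2 change -3.97), Ifit3 (-3.48), Ifit3b (-3.42) and Ifit1 (-3.35), whose products restrain viral replication; how reads shared among the similar Ifit genes were counted is not known here. Summed over the 30 listed genes, the level was 689.9, 678.8 and 826.6 CPM in Il22r+/+ and 326.1, 360.1 and 318.6 CPM in Il22r-/-. Il22r+/+ replicate 3, the highest library for Irf7, Irf9 and Stat2, was also the highest for this sum. Irf7, which is not in the sum, stood at 2.06% to 2.59% of it in Il22r+/+ and at 0.628% to 0.804% in Il22r-/-. This ratio was lower in every Il22r-/- library than in any Il22r+/+ library. The largest members of the sum were Bst2 (means of 255.1 CPM in Il22r+/+ and 117.8 CPM in Il22r-/-) and Ifi27 (175.9 and 53.9 CPM), so the ratio mainly sets Irf7 against them.

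Genes known as targets of IRF1 moved both ways. Of 19 tested, 9 fell and 2 rose (median log2 change -0.59), where 22.1% of all tested genes fell and 23.6% rose. At an unadjusted edgeR p under 0.05, 4 were higher. Irgm1, an immunity-related GTPase, fell from 82.4 ± 10.8 to 6.38 ± 0.438 CPM, the guanylate-binding protein gene Gbp3 from 3.70 ± 1.13 to 0.766 ± 0.10 CPM, and Tapbp, the chaperone that loads MHC class I, from 167.3 ± 18.4 to 49.9 ± 7.64 CPM. Nos2, the inducible nitric oxide synthase gene, had 21 reads in all of Il22r+/+ and 900 in all of Il22r-/- (log2 change 5.36 ± 0.32) and passed the filter only through its Il22r-/- libraries, so its call adds nothing to that difference. The other gene called higher was Psmb8, an immunoproteasome subunit named after its values were seen (2.30 ± 0.243 to 4.43 ± 1.24 CPM). The subunit genes Psmb9 and Psmb10, also named after their values were seen, had log2 differences of 0.59 and 0.36. They did not pass (edgeR adjusted p = 0.0873 and 0.0665). Many genes of this list also answer to ISGF3, so the list does not isolate IRF1.

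**Figure D4:**
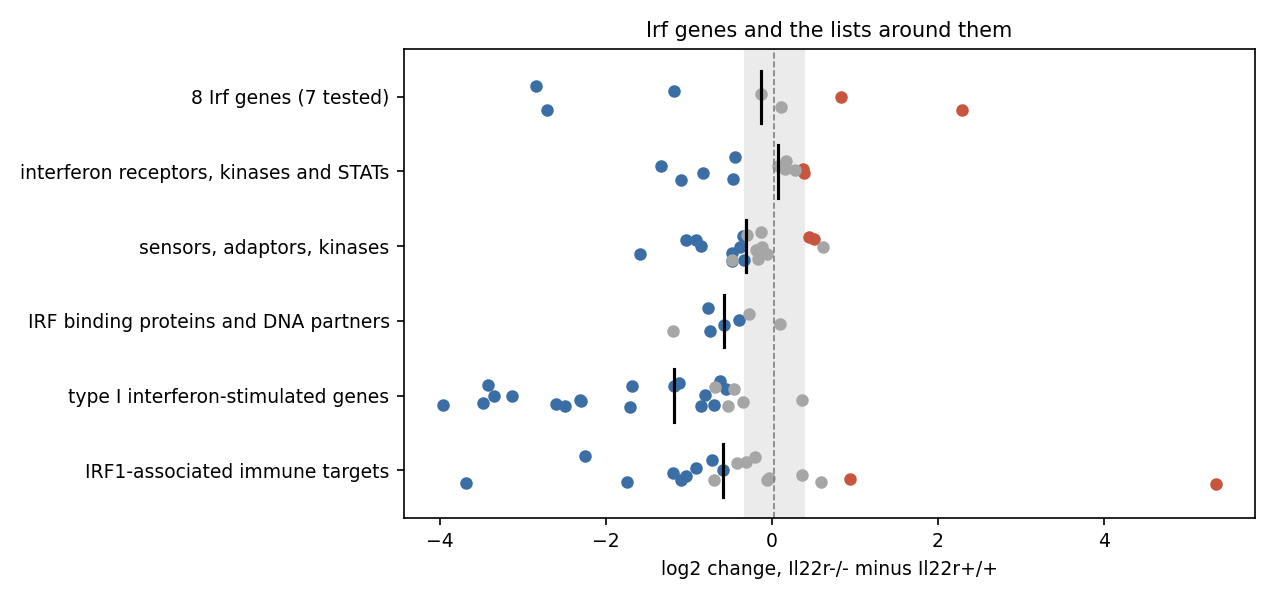
Log2 change (x axis, Il22r-/- minus Il22r+/+) of each tested Irf gene and of each tested gene of the lists around them, red for called higher, blue for called lower, grey for not called, with black bars for the medians, a dashed line for the median of all tested genes (0.03) and grey shading from their lower to upper quartile. The 18 interferon-stimulated genes called all lie below 0, while the IRF1-associated list runs from Irgm1 to Nos2.

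**Figure D5:**
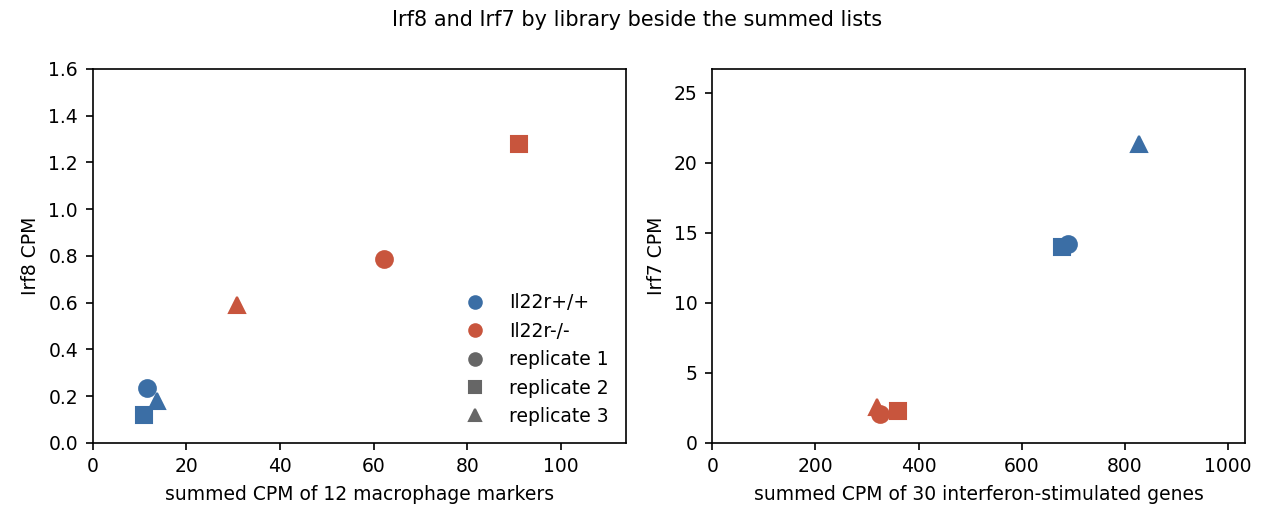
Left, Irf8 (y axis, CPM) against the summed CPM of 12 macrophage markers (x axis); right, Irf7 (y axis, CPM) against the summed CPM of 30 type I interferon-stimulated genes (x axis), 1 point per library, blue for Il22r+/+ and red for Il22r-/-. The Il22r-/- libraries take the order replicate 2, 1, 3 on both axes of the left panel, an order that Irf1, Irf5 and Irf9 also have. Il22r+/+ replicate 3 is highest on both axes of the right panel.

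The profiles most like those of the called Irf genes were sought among 10528 protein-coding genes outside the family with at least 5 CPM, by the root mean square difference of log2 CPM over the 6 libraries, each profile centred on its Il22r+/+ mean. Nearest to Irf9 were Bst2, an interferon-induced tether of virus particles that is also on the list above (difference 0.08), Mgst1 (0.10) and Id1 (0.10). Irf7 was nearest to Trpm5 (0.16), Fgf9 (0.19) and Foxo6 (0.20), and Irf5 to Adam33 (0.16), Trpm5 (0.17) and Col6a1 (0.18). Irf7 and Irf5 thus shared Trpm5, an ion channel gene, among their nearest genes. Irf1 was nearest to Dnajc9 (0.05), Rbmxl1 (0.09) and Mphosph6 (0.09), and Irf8, whose profile is flattened by its few reads, to Susd3 (0.18), Bex1 (0.19) and Zfp641 (0.23).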

How the data were processed

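RNA-seq gene counts of 6 granulosa cell libraries, grouped by the genotype in the labels, were used. The authors deposited raw read counts, made with featureCounts 1.5.0-p3 on mm10 per the submitters' processing notes; the aligner, strand setting and read filters are items not given in the sources used here. Also deposited by the authors were FPKM values, which matched counts divided by gene length and by 1 constant per library; how that constant was set is not given either. Counts were tested in edgeR 4.0.16 (filterByExpr, TMM, robust quasi-likelihood fit, genotype as the only term) over 15227 genes, with Benjamini-Hochberg adjustment over all of them and calls at an adjusted p under 0.05. SEs are the log2 change over the square root of the quasi-likelihood F. The step was tested on simulated counts.

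The deposited counts gave totals of 14948187 to 18116413 per library; intervals cover counting error only. List genes below the filter were not tested, and a gene is said to pass through 1 genotype where all 3 libraries of that genotype alone reached the filter's cutoff; 2 symbols of the sensor list were aliases absent from the tables. Gene coordinates in the tables matched GENCODE M21 for all 8 genes, and exon overlaps were taken from it. Named were all 8 genes, up to 4 called genes of largest change per pathway list with at least 1 CPM in either genotype (or the most abundant 2), 3 genes of nearest profile per called Irf gene (log2 CPM, prior count 2), and neighbouring genes; a few genes that this rule names are not reported here. Members and lists were chosen with earlier results of these data known. Alternatives were DESeq2 1.42.0, other scalings and filters, limma 3.58.1 on log2 FPKM, a replicate block and each library left out in turn. Libraries of a genotype differed by more than sampling noise (chi-square per gene 4.76 to 27.3), so none was counted as a duplicate.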

Additional observations from a re-analysis of the deposited data

How the results depend on the processing

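Over 15 alternatives, 3 Irf genes were called lower in each, and Irf1, Irf2, Irf3, Irf5, Irf7 and Irf9 kept their direction and their side of the threshold. The log2 change ran from -2.96 to -1.75 for Irf7, from -2.86 to -1.82 for Irf5, from -1.30 to -1.00 for Irf9 and from 0.50 to 0.96 for Irf1, the smallest sizes of each coming from limma on log2(FPKM + 1). Irf8 lost its call there (0.13, limma adjusted p = 0.0753, and 0.0986 with no filter). A pseudocount of 1 exceeds the FPKM of Irf8 in every library. With limma on log2(FPKM + 0.1) Irf8 kept its call (0.83, limma adjusted p = 0.0226). The cause of the lost call was not tested. Over its alternatives the lowest adjusted p was 0.00273 (edgeR without Il22r-/- replicate 3). Irf8 was not tested with at least 1 CPM in 3 libraries. In the 3 settings without a call of Irf8, 1 Irf gene was called higher.

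Counts of called list genes moved by over 1.5 times only in the higher direction. With library size alone, which shifted the median gene by 0.10 on the log2 scale and made 63.6% of calls higher instead of 51.59%, 5 receptor, kinase and STAT genes and 4 IRF1-associated genes were called higher. With limma on log2(FPKM + 1), 1 sensor gene and 4 IRF1-associated genes were higher, and unfiltered 1 receptor, 1 partner and 1 IRF1-associated gene. Partner genes called higher were 1 by the DESeq2 Wald test and 2 with no filter. With each library left out, higher calls ranged from 1 to 2 for sensors (1 without Il22r+/+ replicate 2 or replicate 3), from 0 to 2 for partners (2 without Il22r-/- replicate 3) and from 1 to 3 for IRF1-associated genes (1 without Il22r+/+ replicate 2 or Il22r-/- replicate 2). The cause of these changes was not tested. A replicate block called 6405 genes instead of 6963 and changed no call of an Irf gene. Libraries of the same number did not deviate together (r of deviations 0.04, -0.06 and -0.05 across genes), so the numbers are not taken to pair them. Depth limits Irf4 and Irf8 most.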

Other observations

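The motifs searched near the Irf genes can be read beside their frequency in the listed genes. In the windows of the type I interferon-stimulated list (25 windows of 21 matched genes), 44% held GAAANNGAAA and 24% held TTCNNNGAA. In the IRF1-associated list (20 windows of 19 genes) the shares were 45% and 20%. The shares over all windows were 3.4% and 8.3%.

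Other sides of the Irf loci were as follows. Rec8, a meiotic cohesin gene above Irf9, fell from 11.8 ± 0.879 to 7.33 ± 0.929 CPM (SD, n = 3), and Exoc2, an exocyst gene above Irf4, from 81.8 ± 6.04 to 70.5 ± 0.777 CPM. Dendritic cell markers other than Zbtb46, which rose from 11.5 ± 0.965 to 16.6 ± 1.43 CPM, and H2-Ab1, at 3.98 ± 0.163 and 4.20 ± 1.07 CPM, had too few reads for a test.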
